A study of Mus musculus with 32 samples.

Results

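DNA replication licensing is represented here by 10 genes chosen by symbol, namely Mcm2, Mcm3, Mcm4, Mcm5, Mcm6, Mcm7, Mcm10, Cdc45, Cdc6 and Cdt1. All 10 had a row among the 27728 genes of the count table, and all 10 passed the filter on low counts in every fit. They were measured by RNA sequencing in sorted mouse blood progenitors (Lin- cKit+ Sca1-), in a study of how much of the splicing factor gene U2af1 blood cells need. The table held 32 libraries in 9 groups, with 26588099 to 71251200 counts per library. U2af1 itself was not analysed here.

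The 15 fetal liver libraries were taken at E14.5, in midgestation, without treatment. In batch A of the labels there were 3 libraries of U2af1(flox/flox) without Cre (flox control), 3 of Vav1-Cre/U2af1(wt/flox) (heterozygous deletion), 3 of Vav1-Cre/U2af1(flox/flox) (homozygous deletion) and 1 of Vav1-Cre alone. Batch B held 4 libraries of Vav1-Cre/U2af1(wt/S34F) and 1 of Vav1-Cre alone. Vav1-Cre is active in blood cells from early development, so the flox control differs from the deletion groups in Cre as well as in U2af1. The 17 adult bone marrow libraries all carried Mx1-Cre, rTA and the doxycycline-inducible transgene tgU2AF1(WT). The dosed groups were U2af1(flox/S34F) and were injected with polyinosinic-polycytidylic acid (pIpC), an inducer of interferon that switches on Mx1-Cre. Their chow held doxycycline, at 1250 ppm for 4 libraries, 2500 ppm for 6 and 10000 ppm for 4. The adult control was U2af1(wt/wt) and untreated (n = 3). Genotype, pIpC and doxycycline therefore differ together between the dosed groups and this control and cannot be told apart. The 3 dosed groups share genotype and pIpC and differ in dose, and the labels give no batch for the adult libraries. The labels do not say whether libraries of a group came from separate animals, so p-values measure only the spread between these libraries.

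Before S phase, Cdc6 and Cdt1 bring the Mcm2 to Mcm7 proteins to replication origins that are marked by the origin recognition complex, and this loading is called licensing. The 6 Mcm proteins form a ring, the core of the helicase that unwinds DNA, and Cdc45 joins it together with the GINS complex when an origin fires. Mcm10 acts at the step that turns the loaded ring into an active helicase, and E2F transcription factors control many of these genes in the cell cycle, which links them to the rapid division of blood progenitors.

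The genes lie on 7 chromosomes of GRCm38 in the GENCODE M21 annotation, each as a protein-coding gene. Mcm2 is at chr6:88883474-88898780, Mcm3 at chr1:20802968-20820312, Mcm4 at chr16:15623897-15637400, Mcm5 at chr8:75109569-75128439, Mcm6 at chr1:128331590-128359664 and Mcm7 at chr5:138164583-138172422. Mcm10 is at chr2:4989714-5012791, Cdc45 at chr16:18780447-18811987, Cdc6 at chr11:98907801-98923940 and Cdt1 at chr8:122568015-122573554. The miRNA genes Mir25, Mir93 and Mir106b lie inside Mcm7 on its strand, and exons of Cops6 and Ap4m1 overlap those of Mcm7 on the other strand. Exons of Ufd1 overlap those of Cdc45 on the other strand, and Cdt1 overlaps Gm20388 on its own strand in intronic sequence. Strand use in the counting is not given in the sources used here, so reads of such overlaps may have been assigned to either gene, and the values of Mcm7 and Cdc45 are uncertain to that extent.

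Because E2F control is the textbook feature these genes share, their promoters were searched for 4 words of the E2F motif, TTTCCCGC, TTTCGCGC, TTTGCCGC and TTTGGCGC, on both strands. RefSeq promoter windows of GRCm38.p6, from 250 bases before to 50 bases after a start site, were at hand for 9 of the 10 genes, and Mcm4 had no entry. A word was found for 6 of the 9 genes, Mcm3, Mcm5, Mcm6, Mcm7, Cdc6 and Cdt1, against 704 of the 27025 genes with a window (2.61%) and 744 of all 32851 windows (2.26%). The matches are printed below 5′ to 3′ on the gene's strand with the matched letters in capitals, so that a word on the other strand appears as its reverse complement. Distances are from the RefSeq start, which can differ from the GENCODE one. The Cdc6 site and the Mcm7 site 165 bases before the RefSeq start lie inside the GENCODE gene positions given above. Where words on both strands overlap, as in Mcm5 and Mcm6, the capitals run together.
Mcm3, chr1:20820281-20820298, minus strand, 20 bases after the start: ccgtgGCGGGAAAacttg
Mcm3, chr1:20820263-20820279, minus strand, 39 bases after the start: gaagtTTTGGCGCcaag
Mcm5, chr8:75109346-75109377, plus strand, 153 bases before the start: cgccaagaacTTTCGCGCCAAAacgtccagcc
Mcm6, chr1:128359735-128359825, minus strand, 110 bases before the start: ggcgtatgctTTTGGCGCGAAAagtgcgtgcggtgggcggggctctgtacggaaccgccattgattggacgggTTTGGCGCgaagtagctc
Mcm7, chr5:138172031-138172058, minus strand, 165 bases before the start: atttcgaaccGCGGGAAAcagggtgtcc
Mcm7, chr5:138171855-138171872, minus strand, 17 bases after the start: cgacgTTTCGCGCcaatt
Cdc6, chr11:98908003-98908030, plus strand, 138 bases before the start: ccggtggagaGCGGGAAAtcgcctgggg
Cdt1, chr8:122568042-122568059, plus strand, 33 bases after the start: accttTTTGGCGCcatgg

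The Mcm6 window held 3 words and those of Mcm3, Mcm5 and Mcm7 held 2 each. None of the 4 words was found in the windows of Mcm2, Mcm10 and Cdc45. A match is only a run of letters and was not measured as a bound site. Among the other lists, a word was found for 8 of 22 fork and synthesis genes with a window, 7 of 19 E2F and G1/S regulators, 2 of 6 origin recognition genes and 1 of 16 mitosis genes. It was found for 2 of 5 origin firing genes, 2 of 10 regulators of licensing and 0 of 7 nucleotide supply genes.

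Levels are given as counts per 1000000 counts (CPM) after trimmed mean of M values (TMM) scaling over all 32 libraries. Over all genes and libraries the values ran from 65.6 (Cdc45 in a 10000 ppm library) to 854 CPM (Mcm6 in a 2500 ppm library). Mcm2 averaged 655 ± 7.96 CPM (SD, n = 3) in the flox control, 624 ± 48.3 (n = 3) in the heterozygous deletion, 709 ± 62.2 (n = 3) in the homozygous deletion and 471 ± 30.3 (n = 4) in the S34F libraries. In adult marrow Mcm2 averaged 472 ± 18.8 CPM (n = 3) in the untreated control, 601 ± 17.7 (n = 4) at 1250 ppm, 531 ± 32.7 (n = 6) at 2500 ppm and 499 ± 12.5 (n = 4) at 10000 ppm. Fetal and adult libraries differ in stage, tissue and preparation together and were not tested against each other. The 2 Vav1-Cre libraries have 1 genotype and differ in batch, and all 10 genes were lower in the batch B library, at 0.726 (Cdt1) to 0.919 (Mcm6) of the batch A library. With 1 library each this has no replicate check, and fetal comparisons below stay within a batch.

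**Figure D1:**
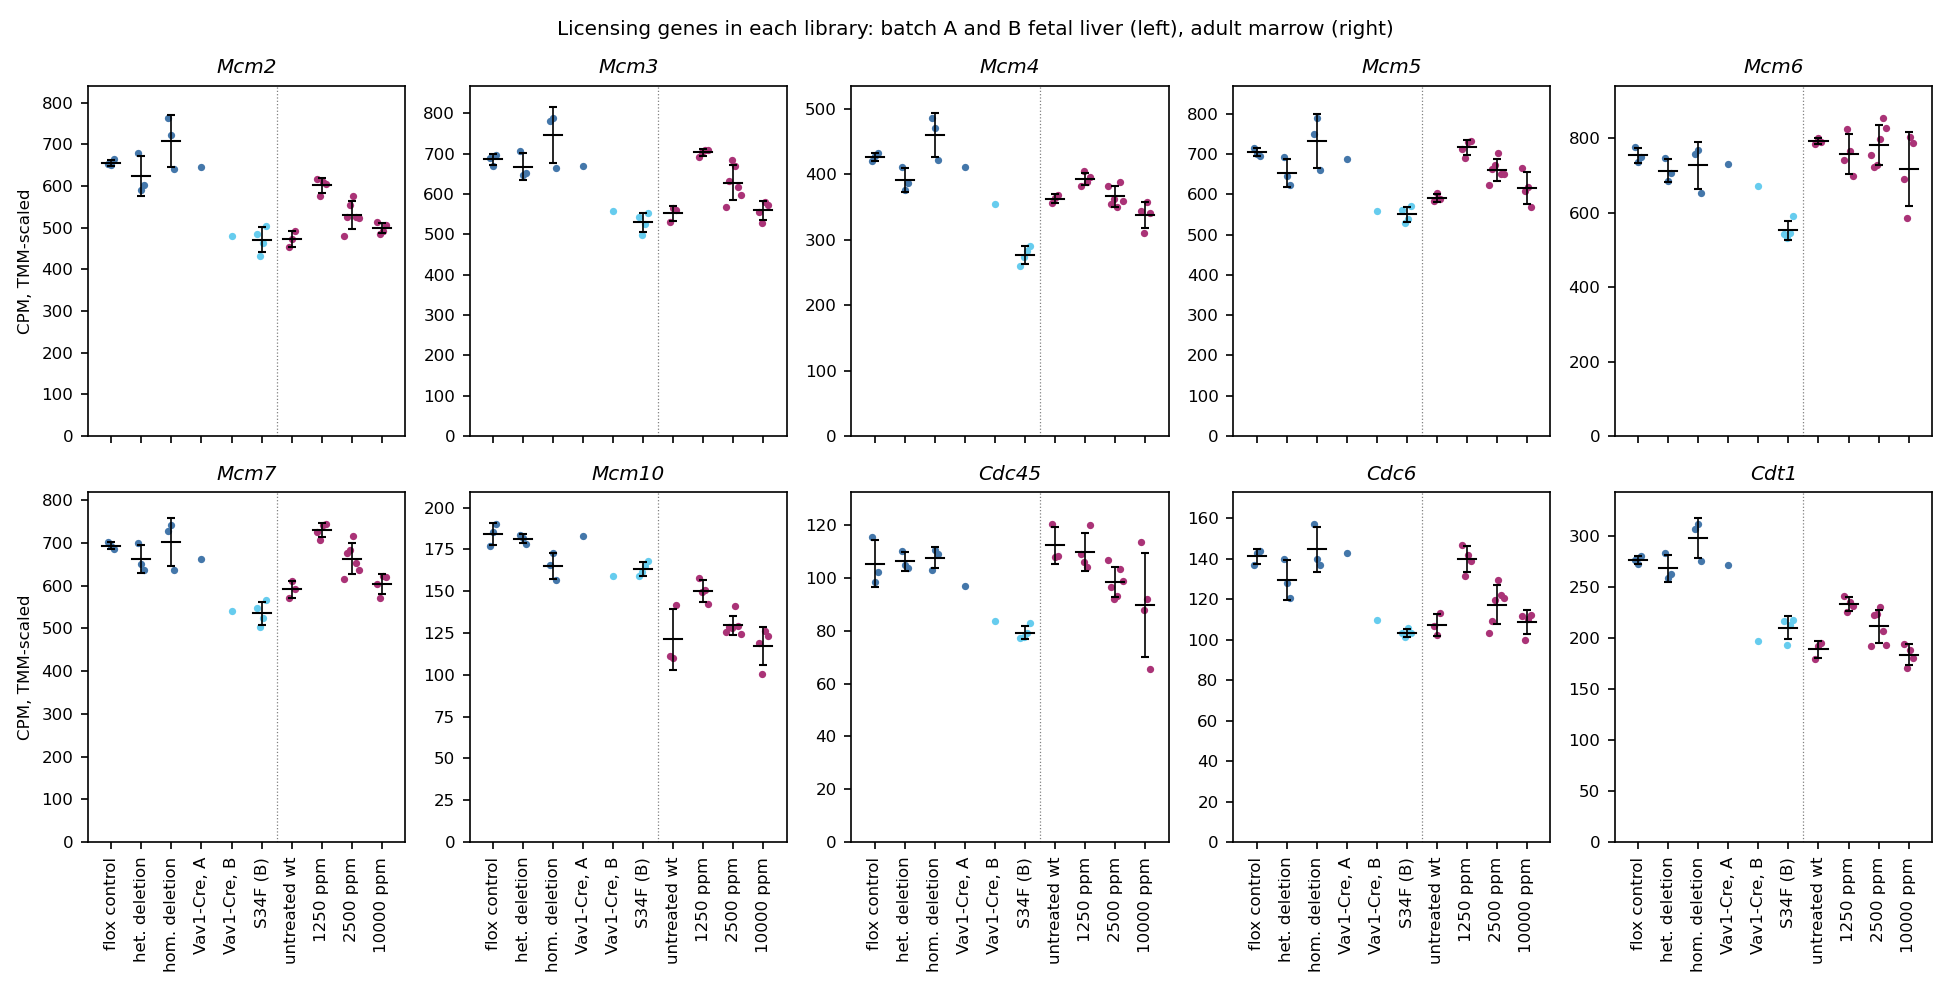
TMM-scaled CPM of the 10 genes, 1 panel per gene with an axis from 0, for each library (points), with the mean and SD of each group of 2 or more (bars). Dark blue marks fetal batch A, light blue fetal batch B and purple adult marrow. In 8 panels all 1250 ppm libraries lie above all untreated and all 10000 ppm libraries, and in those of Mcm6 and Cdc45 they overlap both.

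Divided by transcript length, the order among Mcm2 to Mcm7, whose proteins sit in the ring in equal numbers, depended on the length used. With the principal transcript, Mcm6 had the highest mean over the 32 libraries, 249 CPM per kilobase, and Mcm4 the lowest, 104. With the union of all exons, Mcm3 came first at 168 CPM per kilobase and Mcm2 last at 80.8. That order also varied by group, with Mcm6 first in the untreated libraries (169.8, against 147 for Mcm3) and Mcm5 (154) and Mcm6 (154) above Mcm3 (149) at 10000 ppm. The level of each transcript relative to the other 5 is therefore compared below only within a gene.

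In the homozygous deletion, the licensing genes were close to the flox control, with 1 exception. Only Mcm10 passed the test (edgeR's quasi-likelihood test, Benjamini-Hochberg adjusted p under 0.05 over all 12678 genes tested), and it was lower. This is 1 of 10 members, where 41% of all genes tested were called and 22.4% were called lower. The median log2 fold change was 0.03 over the 10 genes and -0.02 over all genes tested. Mcm10 stood at 177, 185 and 190.2 CPM in the flox control and at 165, 173 and 157 in the homozygous deletion. The groups did not overlap, as 25.1% of all genes did not in the lower direction. The fall was 11.5% (log2 fold change -0.18 ± 0.05 SE, edgeR adjusted p = 0.0178). The call was lost without flox control replicate 4 (edgeR adjusted p = 0.0754), flox control replicate 5 (0.0842) or homozygous replicate 2 (0.0678), and the fall kept its direction in each. Without homozygous replicate 4, 2 of the 10 genes were called, 1 of them higher, beside 4689 of 13071 genes.

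The loading factors and ring subunits were not called. Cdt1 stood at 277, 273 and 281 CPM in the flox control and at 308, 312 and 275 in the homozygous deletion. Mcm3 stood at 689, 670.4 and 698 CPM in the control and at 782, 789 and 666 in the deletion. For both, homozygous replicates 2 and 3 lay above all controls and replicate 4 did not, and that replicate was the lowest of its group for Mcm2 to Mcm7, Mcm10, Cdc6 and Cdt1. Homozygous replicate 4 also had the fewest counts of batch A (34506688) and the fewest genes above 0 of all 32 libraries (14980). The part of this in its values was not tested. Over the 9 genes that were not called, log2 fold changes ran from -0.07 (Mcm6) to 0.10 (Mcm3). Taking all 10 genes, the 95% confidence intervals lay between -0.29 and 0.24. For Mcm7 the estimate was 0.00, with an interval from -0.12 to 0.12, and for Cdc45 it was 0.02, from -0.13 to 0.16.

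With 1 allele deleted, none of the 10 genes was called against the flox control, and only 0.0316% of all genes were called. At an unadjusted p under 0.05, 1 of the 10 and 1120 of the 12678 genes passed, and DESeq2 called none of the 10 either. The log2 fold changes ran from -0.12 (Mcm4) to 0.02 (Cdc45), and 9 of 10 were below 0. Mcm4 stood at 420.4, 428 and 433 CPM in the flox control and at 411, 375 and 387 in the heterozygous deletion. These groups did not overlap, as 7.49% of all genes did not in the lower direction, but with edgeR's adjusted p at 0.562 the difference did not pass. The Mcm5 groups did not overlap either, at 696 to 716 CPM in the flox control and 624 to 692 in the heterozygous deletion (edgeR adjusted p = 0.677).

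Between the deletions, which share the homozygous libraries with the first comparison, Mcm4 was higher and Mcm10 lower in the homozygous deletion. These 2 of 10 stand beside 42.3% of all genes called. Mcm4 reached 486, 471 and 422 CPM in the homozygous deletion, all above the 3 heterozygous libraries (log2 fold change 0.21 ± 0.05 SE, edgeR adjusted p = 0.0095). Mcm10 stood at 184, 182 and 178 CPM in the heterozygous deletion, all above the 3 homozygous libraries (log2 fold change -0.16 ± 0.05 SE, edgeR adjusted p = 0.026). Of all genes, 23.9% did not overlap and were higher in the homozygous deletion, and 26.6% did not overlap and were lower. The Mcm4 call was lost without heterozygous replicate 4 (edgeR adjusted p = 0.0528). The Mcm10 call was lost without heterozygous replicate 4 (0.0961) or 5 (0.063), or homozygous replicate 2 (0.0902) or 4 (0.0609). The count was 4 without heterozygous replicate 3, 0 without heterozygous replicate 4, 1 without heterozygous replicate 5 or homozygous replicate 2, and 5, all higher, without homozygous replicate 4. In the same order, all-gene calls were 5179, 4115, 4048, 4948 and 4903, against 5358 with all libraries.

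**Figure D2:**
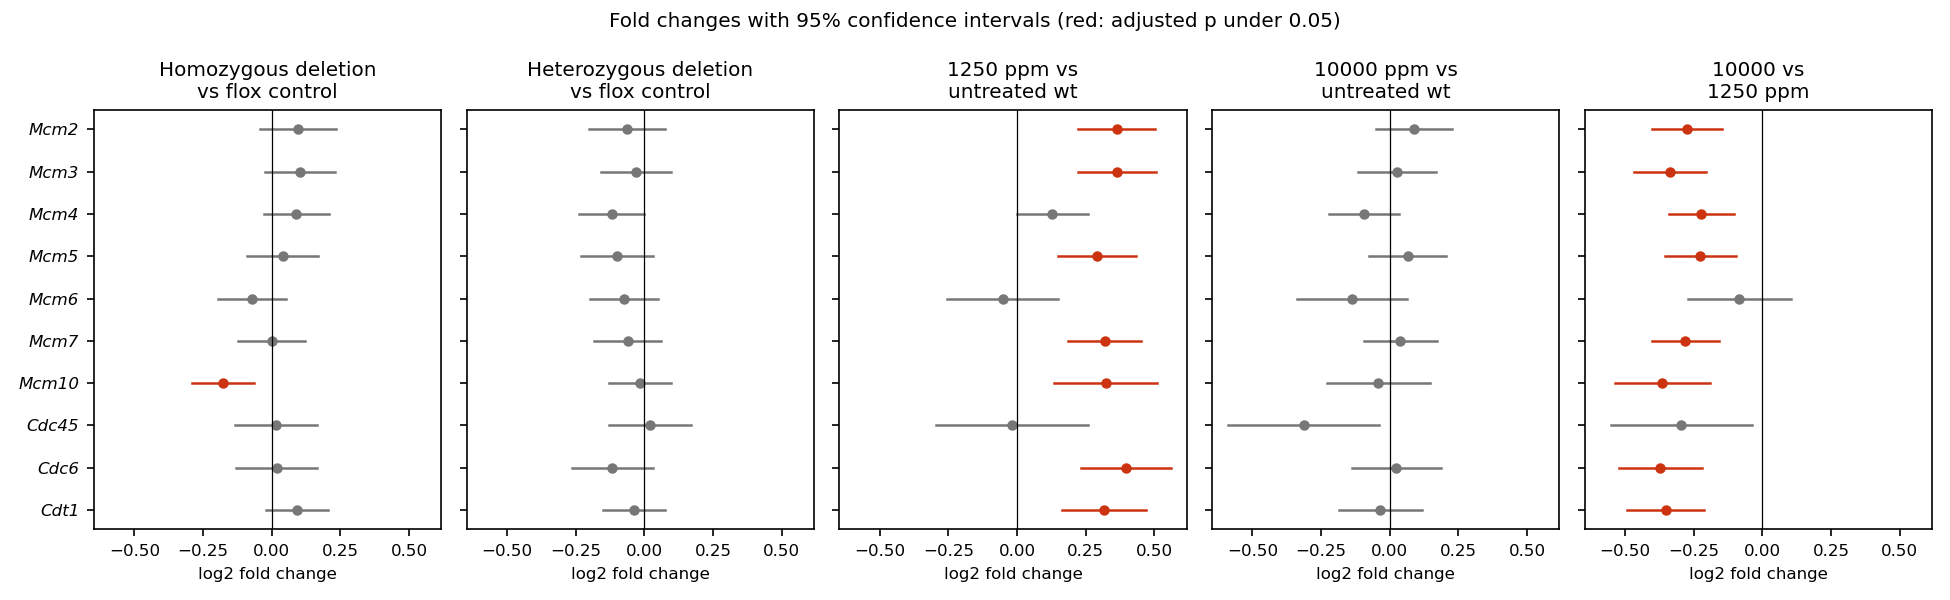
Log2 fold changes (points) with 95% confidence intervals (lines) of the 10 genes from edgeR's quasi-likelihood fits, on 1 shared axis. Red marks an adjusted p under 0.05, which is reached by Mcm10 with both alleles deleted, by 7 genes at 1250 ppm against untreated and by 8 genes at 10000 against 1250 ppm.

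Other replication genes were called in both directions when both alleles were deleted, where 41% of all genes were called. Of 25 fork and synthesis genes, 9 fell and 2 rose. Pole, the catalytic subunit of the leading-strand polymerase, fell by 0.71 on the log2 scale (SE 0.08, edgeR adjusted p = 0.000124), and Prim2 and Pola2, subunits of primase and polymerase alpha, fell by 0.44 and 0.39. Of 6 origin recognition genes, 3 rose and none fell, with Orc4 highest at 0.68. Of 9 regulators of licensing, 1 rose and 3 fell, and the 3 with the largest change, Ddb1, Cul4a and Dtl, are parts of the ubiquitin ligase that removes Cdt1 in S phase. They fell by 0.24, 0.23 and 0.21. Of 11 origin firing genes, 2 rose and 1 fell, and of 8 nucleotide supply genes 2 rose and 1 fell, with Rrm2, a ribonucleotide reductase subunit, up 0.87.

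Among 24 E2F and G1/S regulators, 10 rose and 3 fell, led by Cdkn1a, the p21 inhibitor of cyclin-dependent kinases, at 1.39 (SE 0.31, edgeR adjusted p = 0.00449). Tfdp2, a partner of E2F proteins, fell by 0.85, and Cdc25a rose by 0.68. Of 20 mitosis genes, 7 rose and 3 fell, with Plk1 at 0.45. The replication clamp Pcna (log2 fold change 0.05, edgeR adjusted p = 0.5) and E2f1 (-0.08, 0.36) were not called. That the licensing genes differ from these lists was not tested.

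Several markers of other cells moved in the same comparison. The 4 B-cell markers with a row were all called lower (sum 57.9 to 119 CPM in the flox control, 23.6 to 26.3 in the homozygous deletion, where Pax5 was at 0.0354 to 0.0602). The 9 hepatocyte markers were all called lower (sum 101 to 625 against 11.2 to 30.4 CPM), and so were 7 of 8 macrophage markers (103 to 110.3 against 39.4 to 62.0), with Cd5l and Marco at 0 in at least 1 homozygous library. All 5 megakaryocyte markers and 5 of 9 erythroid markers were lower, and 3 of 6 mast cell and basophil markers were higher. Kit, which defines the sort, was at 484 to 572 CPM in the flox control and at 231 to 323 in the homozygous deletion. In bulk libraries fewer cells of a type and less RNA per cell cannot be told apart. Mcm10 was not called with the hepatocyte (log2 fold change -0.09), macrophage (-0.09), erythroid (-0.13) or B-cell (-0.42) marker level as a covariate. Calls over all genes fell with these covariates too, from 5194 to 1239, 10, 3004 and 543. Of 8 myeloid markers 4 were called higher and 2 lower (sum 15516 to 22686 CPM in the flox control, 16177 to 18383 in the homozygous deletion). With the myeloid level as a covariate Mcm10 was still called (-0.20, edgeR adjusted p = 0.0106), beside 5541 genes in all. Of 5 progenitor markers 1 was called higher and 3 lower (sum 2282 to 2313 against 1871 to 2281.5 CPM). The part of the progenitor, megakaryocyte and mast cell markers was not tested.

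The S34F libraries shared their batch with 1 control library, so they were compared without a test. None of the 10 genes differed from it by 1.5-fold in all 4 libraries. Among the 11823 genes compared, 3.12% did so in the higher and 1.26% in the lower direction. Mcm4 was furthest from the control. It stood at 259.7, 273, 283 and 290.3 CPM in the S34F libraries and at 355 in the control, which is 0.732 to 0.818 of it. Mcm6 stood at 542, 532, 545 and 590.2 CPM against 672, which is 0.791 to 0.878 of the control. All 4 libraries were below the control for Mcm3, Mcm4, Mcm6, Cdc45 and Cdc6, where 31.8% of all genes were lower in all 4. Mcm3, Cdc45 and Cdc6 stood at 0.894 to 0.991 of the control, and Mcm2, Mcm5, Mcm7, Mcm10 and Cdt1 lay on both sides of it. All 4 B-cell markers were lower in each S34F library than in the control (sum 40.1 to 44.9 against 80.2 CPM), and their part in these ratios was not tested.

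In adult progenitors at the lowest dose of 1250 ppm, 7 of the 10 genes rose against the untreated control, and none fell. Of the 13338 genes tested, 11.4% were called and 6.76% were called higher. The 7 were the ring subunits Mcm2, Mcm3, Mcm5 and Mcm7, the loading factors Cdc6 and Cdt1, and Mcm10. Each rose by 22.3% to 31.6%, and the median log2 fold change was 0.32 over the 10 genes and 0.01 over all genes.

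Cdc6 had the largest rise. It stood at 107, 102 and 113 CPM in the untreated libraries and at 147, 131, 142 and 139 at 1250 ppm, without overlap (log2 fold change 0.40 ± 0.08 SE, edgeR adjusted p = 0.0105). Cdt1, which delivers the ring to Cdc6 at the origin, stood at 179, 193 and 196 CPM in the untreated libraries. At 1250 ppm it stood at 241, 225, 235 and 232, again without overlap (log2 fold change 0.32 ± 0.07 SE, edgeR adjusted p = 0.0168).

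The ring subunits moved by similar amounts. Mcm3 stood at 532, 565 and 559.7 CPM in the untreated libraries and at 692, 704, 710.0 and 709 at 1250 ppm (log2 fold change 0.36 ± 0.07 SE, edgeR adjusted p = 0.00918). Mcm2 stood at 454, 473 and 491 CPM untreated and at 616, 576, 608 and 605 at 1250 ppm (0.36 ± 0.07 SE, 0.00899). Every 1250 ppm library exceeded every untreated library for both genes. Mcm7 (0.32) and Mcm5 (0.29) had edgeR adjusted p-values of 0.0112 and 0.0173, also without overlap.

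Mcm10 stood at 111, 110.3 and 142 CPM untreated and at 158, 149, 151 and 142 at 1250 ppm. Untreated replicate 3 lay just under the lowest dosed library (141.9 against 142.3), and the log2 fold change was 0.32 ± 0.09 SE (edgeR adjusted p = 0.0328). Mcm4 stood at 356, 364 and 369 CPM untreated and at 382, 405, 388 and 397 at 1250 ppm. These groups did not overlap either, but the log2 fold change of 0.13, with an interval from 0.00 to 0.26, did not pass (edgeR adjusted p = 0.164). In all, 8 of the 10 genes did not overlap and were higher at 1250 ppm, as were 16.3% of all genes.

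Mcm6 and Cdc45 were not called. Mcm6 stood at 784, 801 and 791 CPM in the untreated libraries, inside the range of 698 to 826 at 1250 ppm (log2 fold change -0.05, interval from -0.25 to 0.15). Cdc45 stood at 120.5, 108 and 108 CPM untreated and at 109, 106, 104 and 120.2 at 1250 ppm (-0.02, interval from -0.30 to 0.26).

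The 7 calls depended on single untreated libraries. None of the 10 genes was called without untreated replicate 1 or without untreated replicate 2, when all-gene calls fell from 1524 to 139 and 68. With untreated replicate 3 left out 7 were called, beside 1234 genes in all. B-cell markers moved with this comparison, since all 4 with a row were called higher (sum 18.5 to 25.7 CPM untreated, 38.4 to 49.6 at 1250 ppm, with Pax5 at 0.0202 to 0.650 untreated and 5.18 to 7.05 at 1250 ppm). Their sum was above the untreated range at the other doses too, at 32.3 to 62.3 CPM at 2500 ppm and 35.3 to 70.2 at 10000 ppm. With the B-cell marker level as a covariate, no gene of the 13338 was called, and the log2 fold changes of the 7 ran from 0.18 (Mcm5) to 0.56 (Mcm10). That level did not overlap between the groups (mean log2 CPM -1.60 to 0.27 untreated, 2.40 to 3.13 at 1250 ppm). This fit therefore cannot separate the marker level from the group. Of 7 macrophage markers tested 4 were called higher (Cd5l at 0.042 to 0.202 CPM untreated and 1.58 to 25.0 at 1250 ppm), with a median log2 fold change of 4.47 over the 7. The list's sum went the other way, at 353 to 456 CPM untreated and 144 to 205 at 1250 ppm. Most of that sum was Vcam1, which was not called, at 336 to 445 CPM untreated and 97.3 to 160 at 1250 ppm. Of 6 mast cell and basophil markers 4 were called lower (sum 107 to 167 CPM untreated, 61.3 to 116 at 1250 ppm). The part of the macrophage and mast cell markers in the rise was not tested.

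Against 1250 ppm, the estimates of all 10 genes were lower at 10000 ppm. The difference passed for 8 of them, all but Mcm6 and Cdc45, where 18.1% of all genes were called and 10.6% were called lower. The libraries at 1250 ppm enter both comparisons, so this is not independent of the rise just described. Cdc6 stood at 112, 99.7, 110.4 and 112 CPM at 10000 ppm, 22.7% below 1250 ppm (log2 fold change -0.37 ± 0.07 SE, edgeR adjusted p = 0.00526). Mcm10 stood at 119, 101, 126 and 123 CPM (-0.36 ± 0.08 SE, 0.00883), and Cdt1 at 194, 171, 189 and 181 (-0.35 ± 0.07 SE, 0.00488). For all 3 genes every library at 10000 ppm was below every library at 1250 ppm.

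Mcm3 stood at 555, 528, 580.4 and 574 CPM at 10000 ppm, far below the 692 to 710.0 at 1250 ppm (log2 fold change -0.34 ± 0.06 SE, edgeR adjusted p = 0.00447). Mcm7 and Mcm2 fell by 0.28 and 0.28 on the log2 scale, Mcm5 by 0.23 and Mcm4 by 0.22, with edgeR adjusted p-values from 0.00648 to 0.0199. The 8 called genes did not overlap between the doses, as 13.4% of all genes did not in the lower direction. Cdc45 ran from 65.6 to 114 CPM at 10000 ppm, overlapping 1250 ppm (-0.30 ± 0.12 SE, edgeR adjusted p = 0.1), and Mcm6 ran from 587 to 804 (-0.08 ± 0.09 SE, 0.543).

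With any 1 library of the compared groups left out, 6 to 9 of the 10 genes were called, beside 1118 to 2809 genes in all. Over all 21 alternative fits, the call was lost in 10 for Mcm5 and in 8 for Mcm4. It was lost in 3 for Mcm2 and Mcm7 and in 2 for Mcm3, Mcm10, Cdc6 and Cdt1. Megakaryocyte markers moved with the dose, with 4 of 5 called higher at 10000 ppm (sum 91.8 to 292 CPM against 48.9 to 96.1 at 1250 ppm). Erythroid markers summed to 980.2 to 1754 CPM at 10000 ppm and to 473 to 1024 at 1250 ppm, with 2 of 9 called higher. With the megakaryocyte level as a covariate no gene in the table was called, and the log2 fold changes of the 8 ran from -0.13 (Mcm4) to -0.31 (Mcm3). That level did not overlap between the doses (mean log2 CPM 3.56 to 4.97 at 10000 ppm, 2.35 to 3.47 at 1250 ppm). This fit therefore can hardly separate it from the dose. With the erythroid level 5 of the 10 genes were called, beside 480 of 13338 genes.

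The mean at 2500 ppm lay between those of the other doses for all genes but Mcm6. Mcm3 had a lowest value of 569, a median of 626 and a highest of 683 CPM there, and Cdc6 of 103, 119.96 and 129. Mcm3 at 2500 ppm overlapped 10000 ppm but not 1250 ppm, where its lowest library was at 692, nor the untreated libraries, whose highest was at 565. The 2500 ppm libraries of Cdc6 did not overlap 1250 ppm but overlapped the untreated and 10000 ppm libraries. Of all genes, 4.43% lay without overlap below 1250 ppm, and 5.48% lay without overlap above untreated. Only Cdc6 was called between 2500 and 1250 ppm (log2 fold change -0.27 ± 0.06 SE, edgeR adjusted p = 0.0465), beside 1.91% of all genes. That call was lost without any 1 of the 4 libraries at 1250 ppm or without replicate 1, 2, 5 or 6 at 2500 ppm. With 2500 ppm replicate 4 left out 4 of the 10 genes were called, beside 926 genes in all. Against the untreated control, edgeR called none of the 10 genes at 2500 ppm (5 at an unadjusted p under 0.05), beside 0.487% of all genes. DESeq2 called 2 of the 10, beside 567 of 13318 genes.

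At 10000 ppm the 10 genes were near the untreated level. None was called, beside 1.27% of all genes, with 1 of 10 at an unadjusted p under 0.05 and none with DESeq2. The median log2 fold change was -0.01, and estimates for 9 genes lay between -0.14 (Mcm6) and 0.09 (Mcm2). For Cdc45 it was -0.31 (interval from -0.59 to -0.04, edgeR adjusted p = 0.17), and 1 library at 10000 ppm stood at 65.6 CPM. Mcm2 stood at 513, 485, 493 and 506 CPM at 10000 ppm, overlapping the untreated libraries. Between 10000 and 2500 ppm, edgeR called no gene in the whole table (0%, with 1445 genes and 3 of the 10 at an unadjusted p under 0.05), and DESeq2 called 50 genes but none of the 10.

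A slope on log2 of the dose over the 14 dosed libraries was negative for all 10 genes. It passed for Mcm3, Mcm7, Mcm10, Cdc6 and Cdt1, 5 of 10 where 10.3% of all genes were called and 4.77% were called lower. Cdt1 had the steepest slope, a fall of 0.10 on the log2 scale for each doubling of the dose (SE 0.02, edgeR adjusted p = 0.0187), and Mcm6 the flattest (-0.02, 0.694). This fit uses the same libraries as the pairwise comparisons. No gene of the 10 passed without 10000 ppm replicate 2, when all-gene calls went from 1297 to 85. Without replicate 1, 3, 4 or 5 at 1250 ppm, 1, 3, 2 and 1 passed, beside 332, 501, 463 and 290 genes in all. With the erythroid or the megakaryocyte level as a covariate none of the 10 passed, beside 0 and 1 of all 12546 genes.

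Mcm6 stood apart from the other ring subunits in adult marrow, a description chosen after its values were seen. Its CPM divided by the mean CPM of the other 5 genes was 1.57, 1.53 and 1.52 in the untreated libraries and 1.18, 1.34, 1.2 and 1.09 at 1250 ppm. At 2500 ppm the ratio had a lowest value of 1.23 and a highest of 1.51, and at 10000 ppm it stood at 1.29, 1.17, 1.51 and 1.51. All dosed libraries were below all untreated ones, and the 3 doses overlapped one another. In fetal batch A the ratio was 1.17 to 1.22 in the flox control, 1.17 to 1.22 in the heterozygous deletion and 1.08 to 1.09 in the homozygous deletion, which did not overlap the others. In batch B it was 1.13 to 1.19 in the S34F libraries and 1.35 in the control library. These ratios were not tested, and a ratio shows unequal change only, not which transcript moved.

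**Figure D3:**
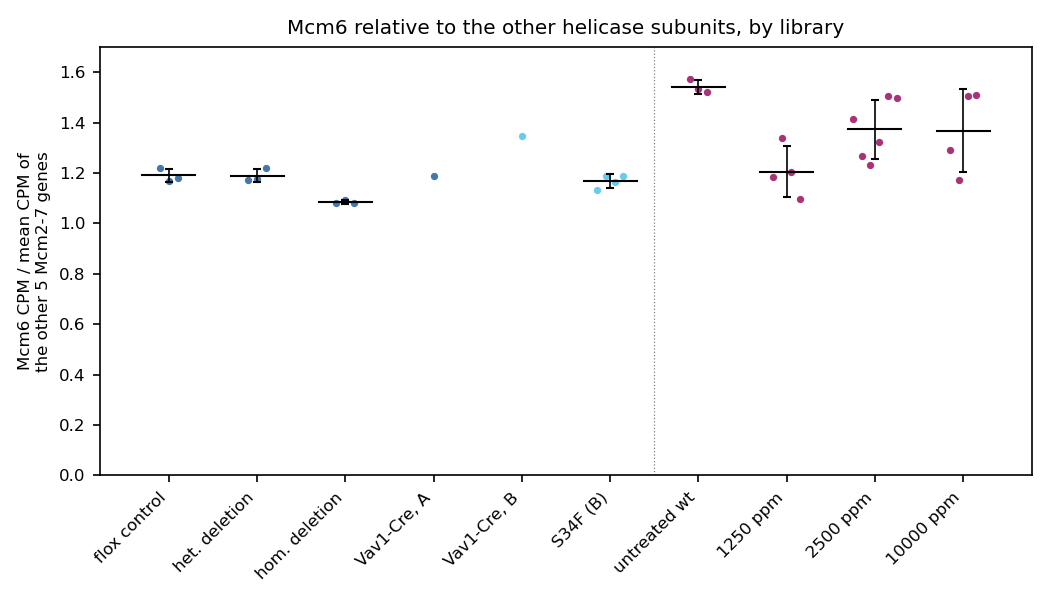
Mcm6 CPM divided by the mean CPM of Mcm2, Mcm3, Mcm4, Mcm5 and Mcm7 in each library (points, axis from 0), with the mean and SD of groups of 2 or more. Dark blue is fetal batch A, light blue fetal batch B and purple adult marrow. The untreated adult libraries, at 1.52 to 1.57, lie above every other library.

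The other replication lists are given for the same adult comparisons. At 1250 ppm against untreated, where 11.4% of all genes were called, 6 of 25 fork and synthesis genes rose and none fell, with Pold2 at 0.48, Pola2 at 0.40 and Fen1 at 0.40 on the log2 scale, and the list's median was -0.04. Of 11 origin firing genes only Gins2, a subunit of the GINS complex that joins the helicase with Cdc45, was called, with a rise of 0.49 (SE 0.09, edgeR adjusted p = 0.00899). Of 6 origin recognition genes 1 fell (Orc4, -0.67), and of 9 regulators of licensing 1 fell (Dbf4, the activator of the Cdc7 kinase, -0.36). Of 8 nucleotide supply genes 2 rose (Dut, 0.36, and Tyms, 0.29). Of 20 mitosis genes 1 rose (Cdc20, 0.42), and Mki67 was not called (-0.21, edgeR adjusted p = 0.254). Of 24 E2F and G1/S regulators 3 rose and 3 fell, led by Cdkn1a (1.11), Ccne1 (0.86) and Rb1 (-0.68).

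At 10000 against 1250 ppm, where 18.1% of all genes were called, 6 of 25 fork and synthesis genes fell, with Pold2 (-0.44), Fen1 (-0.42) and Pola2 (-0.42) largest, and none rose. Of 11 origin firing genes 3 fell (Gins2, -0.38, Recql4, -0.37, and Gins1, -0.32). Orc1 fell by 0.44, as the only one called of 6 origin recognition genes, and Gmnn, the inhibitor of Cdt1, fell by 0.23, as the only one of 9 regulators. Of 20 mitosis genes 6 fell, with Plk1 at -0.48, and of 8 nucleotide supply genes Dut (-0.44) and Ctps (-0.41) fell. Of 24 E2F and G1/S regulators 4 rose and 2 fell, led by the inhibitor Cdkn2c (0.80). Pcna was not called in either comparison (-0.09 and -0.03). The median log2 fold change was -0.02 for the E2F and G1/S regulators, -0.19 for the mitosis genes and -0.29 for the 10 licensing genes. At 1250 ppm against untreated it was -0.11, 0.0039 and 0.32, and -0.32 for the origin recognition genes.

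**Figure D4:**
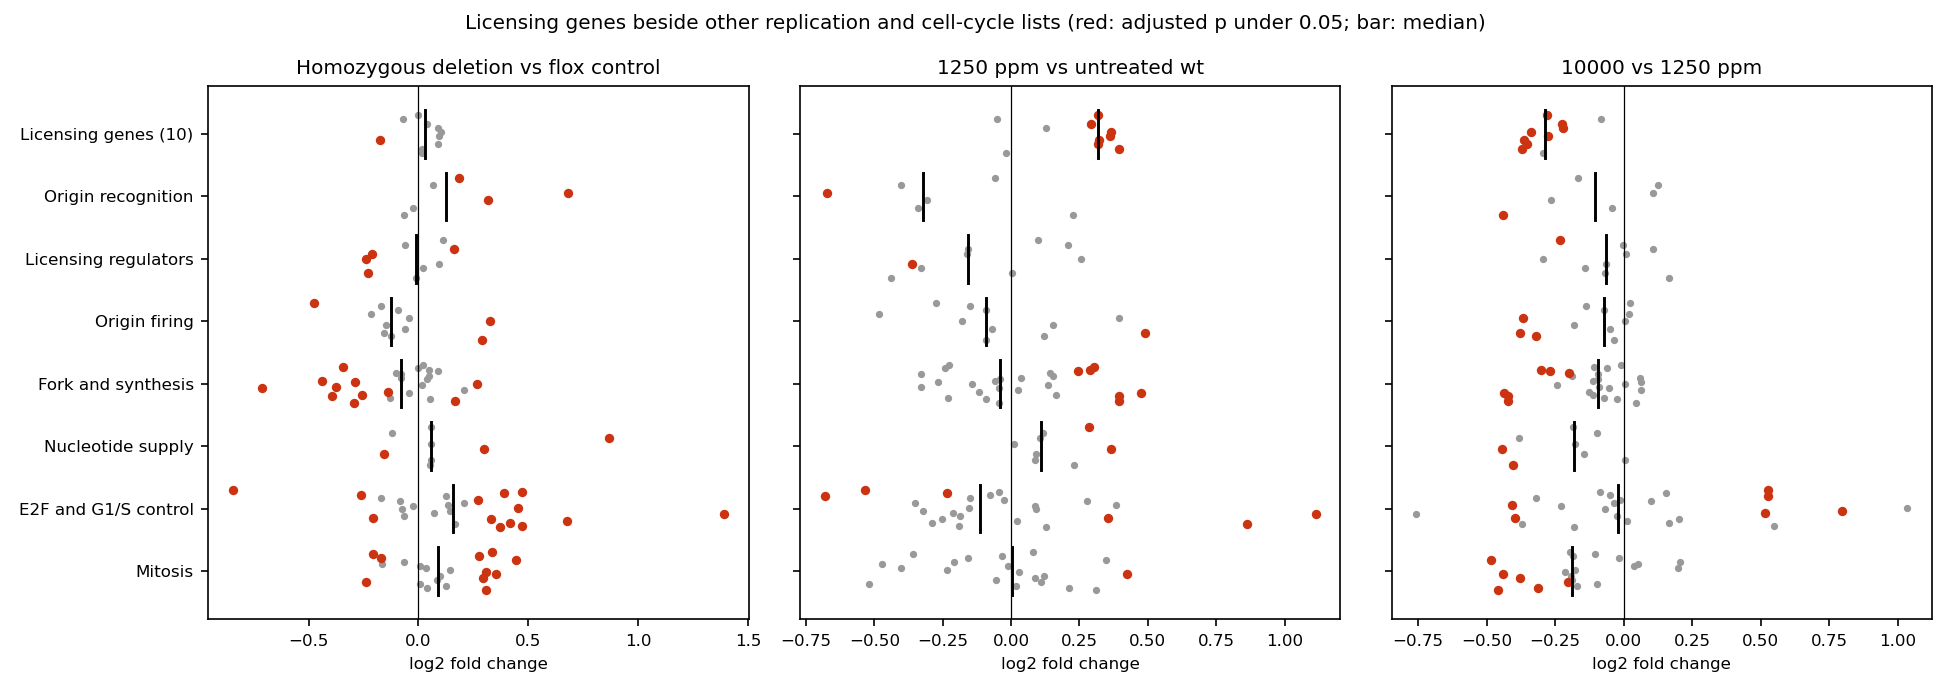
Log2 fold change of each gene (points) in 8 lists for 3 comparisons, with a black bar at each list's median and red for an adjusted p under 0.05 by edgeR. The axes of the panels differ in range. The licensing genes have a median of 0.03 with both alleles deleted, 0.32 at 1250 ppm against untreated and -0.29 at 10000 against 1250 ppm.

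Across libraries most of the 10 genes varied together. The median Pearson correlation of log2 CPM over the 45 pairs was 0.71 over the 9 fetal batch A libraries and 0.65 over the 17 adult libraries. These points share library, depth and scaling, and groups are included in them. After the group means were removed, the medians were 0.75 and 0.41. By gene, the median correlation with the other 9 was lowest in fetal liver for Mcm10 (-0.26) and Cdc45 (0.16), and the other 8 had medians from 0.60 (Mcm6) to 0.88 (Mcm3). In adult marrow it was lowest for Mcm6 (0.14) and Cdc45 (0.20), and the others had medians from 0.62 (Mcm4) to 0.90 (Mcm2).

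Genes outside the 10 whose log2 CPM followed their mean most closely were listed by Pearson correlation. Over the 9 fetal batch A libraries and 9670 genes these were Pcna (0.985), Eif3m (0.975), Usp30 (0.969), Pmpcb (0.968) and Mrps11 (0.967). Over the 17 adult libraries and 9599 genes they were Ncbp2 (0.949), Gle1 (0.946), Rbm14 (0.940), Psmd2 (0.939) and Uba1 (0.938). The lists share no gene, and 1.24% and 0.792% of the genes compared had a correlation above 0.9.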

How the data were processed

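The members and the gene lists were chosen with earlier results of these data known. RNA from 32 libraries was sequenced after depletion of ribosomal RNA, per the labels' protocols. The deposited values are raw counts per Ensembl gene, with no normalization by the authors. Reads were mapped with HISAT2 to GRCm38, as version 2.1.0 per the labels' design text and 2.0.86 per the submitters' processing notes. The counting tool, annotation release and strand use are not given in the sources used here. Symbols, lengths and positions came from GENCODE M21.

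Counts were fitted with edgeR 4.0.16 (TMM, filterByExpr, quasi-likelihood test, Benjamini-Hochberg over all genes tested, adjusted p under 0.05) in R 4.3.3. One fit held 9 batch A libraries (3 genotypes), 1 the 17 adult libraries, and 1, on log2 dose, the 14 dosed libraries. S34F libraries were compared with the control library of their batch, over genes with a mean of at least 10 counts. Log2 CPM used a prior count of 2. All 10 genes are described, and from each other list the called counts and up to 3 genes with the largest change, besides Pcna, Mki67, E2f1, Cdkn1a, Orc1, Gmnn and Dbf4. The likeness list is the 5 genes with the highest correlation among those with a mean of at least 50 counts. All 45 pairs of libraries within a group differed beyond counting error, with chi-square over its degrees of freedom at 3.85 to 522. Alternatives were DESeq2 1.42.0, median-ratio (RLE) factors, other filters, a replicate block, only the compared groups, a batch covariate, the rank of the dose, Y-linked reads, marker levels and leaving out each replicate. The macrophage, B-cell, megakaryocyte and myeloid covariates were chosen after seeing the data.

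Of the listed genes, those without a row here were not analysed. For markers these included Klf1, Hba-a1, Prtn3, Cebpe, Gp1ba, Ebf1, Vpreb1, Igll1, Rag1, Afp, Serpina1a and Serpina1b, and for the other lists Skp2, Mcmbp, Lig1, Mcm9, E2f6 and Ccnd1.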

Additional observations from a re-analysis of the deposited data

Results flagged for a closer look

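In 40 groups of 4 to 6 libraries, 1 per gene and group, a library far from the others of its group was found 2 times, and chance alone gives about 1 in 20 such groups. Mcm10 in replicate 4 at 2500 ppm stood at 141 CPM, with the next library at 129. Cdc6 in replicate 2 at 10000 ppm stood at 99.7 CPM, with the next library at 110.4. No explanation was tested for either.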

How the results depend on the processing

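No call of a member changed direction in any alternative. A further limit of 0.5 on the size of the log2 fold change left 0 members in every comparison. Homozygous deletion against flox control went from 1 to 0 without the low-count filter and with the erythroid, hepatocyte, macrophage or B-cell level as covariate, and ran from 0 to 2 on leaving out 1 library. Homozygous against heterozygous deletion went from 2 to 6 with DESeq2, 5 with RLE factors, 7 with all 15 fetal libraries and a batch covariate, 1 without the filter, and 0 with the macrophage or B-cell level, and from 0 to 5 on leaving out 1 library. For S34F, 0 members differed by 1.5-fold in all 4 libraries. An edgeR fit is another rule and assumes that the lone control, which has no replicate, varies like the S34F libraries. Its largest log2 fold change among the members was -0.35, for Mcm4. The 2500 ppm count against untreated went from 0 to 2 with DESeq2. The 1250 ppm count against untreated went from 7 to 4 without the filter (702 of 25647 genes) and to 0 with the B-cell level, and from 0 to 7 on leaving out 1 library. The 10000 against 1250 ppm count went from 8 to 5 with the erythroid level or only the compared groups (480 and 1052 genes in all) and to 0 with the megakaryocyte level, and from 6 to 9 on leaving out 1 library. The 2500 against 1250 ppm count went from 1 to 5 with DESeq2, 2 with Y-linked reads as covariate, and 0 with RLE factors, without genes over 1% of counts, without the filter, with the erythroid, megakaryocyte or myeloid level, or with only the compared groups, and from 0 to 4 on leaving out 1 library. The dose slope went from 5 to 8 with DESeq2 and 0 with the erythroid or megakaryocyte level, and from 0 to 6 on leaving out 1 library. In several fits with more members called, calls over all genes rose as well. For homozygous against heterozygous deletion they went from 5358 to 5813 with DESeq2, 5443 with RLE factors and 6109 with the batch covariate. With DESeq2 they went from 65 to 567 for 2500 ppm against untreated. They went from 255 to 1106 for 2500 against 1250 ppm and from 1297 to 2216 for the slope. On leaving out a library this did not hold. Without homozygous replicate 4 more members were called, but all-gene calls fell. They went from 5194 to 4689 against flox control and from 5358 to 4903 against heterozygous deletion. The causes were not tested. The Y-linked covariate recorded only whether reads of 1 Y-linked gene were present. They were present in all dosed libraries, so that covariate was not run for the slope.

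Replicate numbers showed no general pairing of the libraries, though single pairs varied widely. Deviations from the group mean had a median correlation of 0.02 over 7 same-numbered fetal pairs (2 above 0.1) and of 0.03 over 19 adult pairs (7 above 0.1). With the replicate block 0 members were called for homozygous deletion against flox control or against heterozygous deletion, 2500 against 1250 ppm and the dose slope, and 2 for 1250 ppm against untreated. In the same order, all-gene calls with the block were 4049, 4325, 0, 28 and 438.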
